A study of Mus musculus with 6 samples.

Results

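The Hox genes are homeobox genes that encode DNA-binding transcription factors of body patterning. In the mouse they lie in 4 clusters, Hoxa, Hoxb, Hoxc and Hoxd, and a gene's number gives its paralogue group, so that Hoxa5 and Hoxb5 are copies that arose when the clusters were duplicated. Order along a cluster matches order of use along the body axis: low numbers act towards the head, high numbers towards the tail, limb tips and genital tract. Polycomb and trithorax complexes keep clusters silent or active, retinoic acid induces the low-numbered end, and the HOX proteins bind DNA with cofactors of the TALE class such as MEIS and PBX. In the lung, Hoxa5 and Hoxb5 are known from mouse development as genes of the mesenchyme that shape airway branching.

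All genes whose symbol was Hox followed by a cluster letter and a paralogue number were taken, which gave 39 of the 24520 identifiers in the tables: 11 Hoxa, 10 Hoxb, 9 Hoxc and 9 Hoxd genes. RNA came from endothelial cells, the lining of blood vessels, that had been sorted from mouse lung by flow cytometry. There were 3 libraries from mice labelled knockout (KO) for Dnmt3a, an enzyme that sets new DNA methylation, and 3 from mice labelled wild type (WT). The sources used here give no allele, Cre driver, strain, age or sorting gate. They also do not say that replicates were separate mice. The p-values therefore measure the spread among these libraries, some of which may be technical. Sex as read from Xist and Y-linked genes was female for replicate 1 and male for replicates 2 and 3, under both labels. Replicate 1 thus did not come from the same mouse as replicate 2 or 3, whereas replicates 2 and 3 remain untold apart. Both groups went through the same low-input amplification of 10 ng of total RNA.

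Totals ran from 28136194 to 31402838 estimated counts in the libraries labelled KO and from 29482747 to 39999172 in those labelled WT. Dnmt3a itself had 5090, 4878 and 4750 counts in KO replicates 1, 2 and 3, against 1235, 1079 and 1198 in WT replicates 1, 2 and 3 (log2 fold change 2.22, SE 0.11, edgeR adjusted p = 0.00157). In counts per gene, the targeted gene thus ran against the labels. Such counts do not show which exons were read, and the reason was not tested. Every direction in the text is therefore given by label, KO over WT, and not by the state of the gene. The 10 endothelial markers summed to 14900 to 17700 CPM, the count as a share of the library's scaled total, in the libraries labelled KO. They summed to 15200 to 18900 CPM in those labelled WT, and no marker was at 0 in all 6 libraries. Across all 14667 tested genes, edgeR called 5, which is 0.0341%, and 1855 had an unadjusted p under 0.05.

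The promoters of 3 genes are shown as single examples of the 3 kinds of behaviour described below. Hoxb4 was higher in every library labelled KO. Hoxa5 was the most abundant Hox transcript and overlapped between the labels, and Hoxa13 had no count in any library. Each window runs from 250 bases before to 50 bases after the annotated start, read 5′ to 3′ on the gene's strand from RefSeq (build GRCm38.p6, the assembly of mm10). Capitals mark the CG dinucleotide, the site that DNA methyltransferases act on.
Hoxb4, chr11:96318017-96318316, plus strand, 14 CG: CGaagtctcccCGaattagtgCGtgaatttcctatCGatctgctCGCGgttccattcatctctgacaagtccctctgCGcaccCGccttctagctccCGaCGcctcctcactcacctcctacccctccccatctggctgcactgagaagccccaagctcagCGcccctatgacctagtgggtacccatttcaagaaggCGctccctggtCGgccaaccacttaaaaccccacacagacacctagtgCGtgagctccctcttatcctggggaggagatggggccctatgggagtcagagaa
Hoxa5, chr6:52204538-52204837, minus strand, 29 CG: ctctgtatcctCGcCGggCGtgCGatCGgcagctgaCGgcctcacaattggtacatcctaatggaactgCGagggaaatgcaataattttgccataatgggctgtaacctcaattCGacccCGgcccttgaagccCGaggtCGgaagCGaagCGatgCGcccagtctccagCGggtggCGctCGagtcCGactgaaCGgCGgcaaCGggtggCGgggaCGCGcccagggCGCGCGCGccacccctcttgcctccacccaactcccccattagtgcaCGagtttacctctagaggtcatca
Hoxa13, chr6:52260831-52261130, minus strand, 45 CG: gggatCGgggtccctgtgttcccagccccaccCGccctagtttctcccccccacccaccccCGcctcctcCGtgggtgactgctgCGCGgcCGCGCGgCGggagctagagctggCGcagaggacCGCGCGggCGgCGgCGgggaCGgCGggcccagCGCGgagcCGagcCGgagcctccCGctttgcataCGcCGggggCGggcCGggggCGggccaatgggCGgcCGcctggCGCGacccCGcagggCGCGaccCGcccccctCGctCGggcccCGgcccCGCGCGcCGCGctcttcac
The motif CG reads the same on both strands, and 94.6% of the 32851 promoter windows of this length hold at least 1. As many CG as in Hoxb4 were found in 36.3% of windows, as many as in Hoxa5 in 12.9% and as many as in Hoxa13 in 1.93%. Windows were found for 22 of the 39 Hox genes, with 4 to 45 CG each, and for none of Hoxb2, Hoxb3 and Hoxb5. Hoxa13 held the most. Hox genes without a count in any library held from 13 CG (Hoxd12) to 45, and those tested from 9 (Hoxa2 and Hoxa7) to 29 (Hoxa5). Methylation itself was not measured in these files.

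The sorted samples held RNA of the low and middle paralogue groups and of hardly any Hox gene beyond number 7. In TPM, the deposited abundance of transcripts that is scaled by transcript length and so allows genes to be compared, the 15 genes of groups 1 to 5 together reached 109, 102 and 101 in KO replicates 1, 2 and 3 and 81.3, 71.2 and 54.0 in WT replicates 1, 2 and 3. These 15 genes held 85.7% to 93.7% of all Hox TPM in a library. Groups 6 to 8 held 5.63% to 14%, most of it from Hoxa7 and Hoxa6. The 16 genes of groups 9 to 13, which pattern the hind body and limbs, summed to 0.335 to 0.581 TPM in the libraries labelled KO and to 0.140 to 0.594 TPM in those labelled WT, or 0.222% to 0.684% of Hox TPM, and no member of them passed the filter on low counts.

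**Figure D1:**
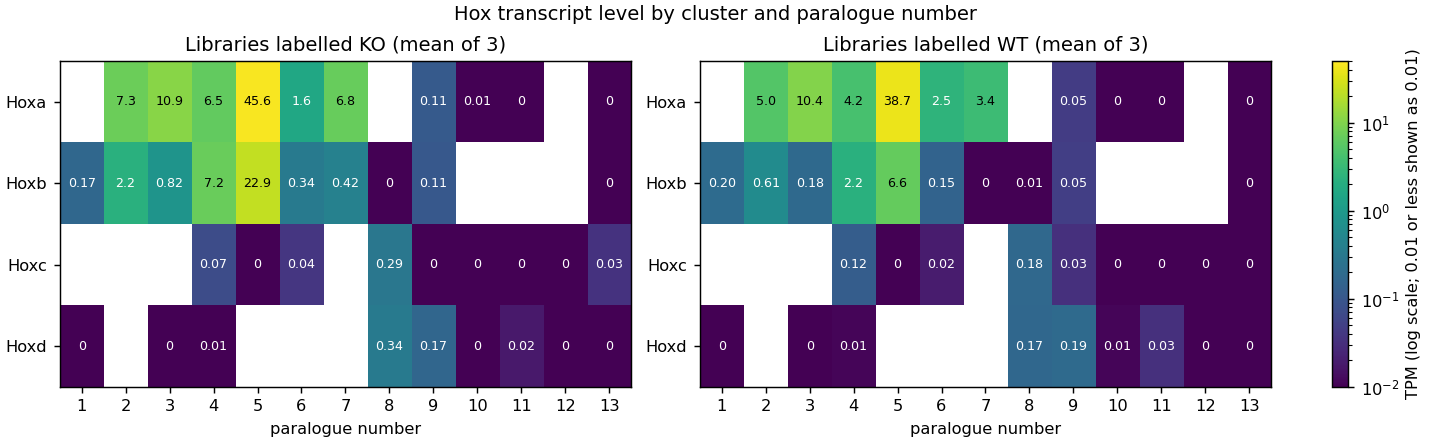
Mean TPM of each Hox gene in the libraries labelled KO (left) and labelled WT (right), with clusters down the page and paralogue number across; blank cells hold no gene or are not shown, and colour is on a log scale. Signal sits mainly in Hoxa at numbers 2 to 7 and in Hoxb4 and Hoxb5. It is highest at Hoxa5 (45.6 TPM labelled KO, 38.7 TPM labelled WT), and the Hoxc and Hoxd rows stay below 1 TPM.

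The Hoxb cluster carried more RNA in the libraries labelled KO, while Hoxa overlapped. Summed Hoxa TPM was 92.4, 64.6 and 80.3 in KO replicates 1, 2 and 3 and 75.7, 68.9 and 50.0 in WT replicates 1, 2 and 3, so the labels overlapped. Summed Hoxb TPM was 28.6, 45 and 29.0 in KO replicates 1, 2 and 3, against 9.85, 7.64 and 12.6 in WT replicates 1, 2 and 3. Every library labelled KO thus lay above every library labelled WT for Hoxb, with a ratio of the means of 3.41, and for Hoxa that ratio was 1.22. Most of the Hoxb sum came from Hoxb5, at a mean of 22.9 TPM labelled KO and 6.63 TPM labelled WT. Hoxb4 followed with 7.23 TPM and 2.2 TPM in the same order, so the Hoxb ratio largely repeats these genes. Hoxb1 was not higher, at 0.171 TPM labelled KO and 0.197 TPM labelled WT. As a share of all Hox TPM, Hoxb took 23.3%, 40.8% and 26.4% in KO replicates 1, 2 and 3 and 11.3%, 9.89% and 20% in WT replicates 1, 2 and 3. Hoxc summed to 0.437 ± 0.0716 TPM in the libraries labelled KO and 0.354 ± 0.249 TPM in those labelled WT, and Hoxd to 0.533 ± 0.362 TPM and 0.417 ± 0.196 TPM in the same order of labels (mean ± SD, n = 3 each). Sums over a cluster are descriptions and were not tested.

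In the Hoxb cluster, whose genes span chromosome 11 from 96194316 to 96368256 on mm10, the 4 genes from Hoxb2 to Hoxb5 stood above all WT libraries in each library labelled KO. Hoxb5 (ENSMUSG00000038700, chromosome 11, 96303336 to 96306121, plus strand), which in cultured endothelial cells is known to activate the VEGF receptor gene Kdr, had 501, 1007 and 574 counts in KO replicates 1, 2 and 3, against 224, 135 and 378 in WT replicates 1, 2 and 3. The highest was KO replicate 2 and the lowest WT replicate 2, and the labels did not overlap. Its level was 22.9 ± 8.29 TPM in the libraries labelled KO and 6.63 ± 2.23 TPM in those labelled WT (mean ± SD, n = 3 each), with a log2 fold change in counts of 1.70 (SE 0.36, edgeR adjusted p = 0.24). Hoxb4 (ENSMUSG00000038692, chromosome 11, 96318267 to 96321638, plus strand), known for expanding blood stem cells when overexpressed, had 282, 368 and 274 counts in KO replicates 1, 2 and 3, against 94, 89 and 155 in WT replicates 1, 2 and 3. These 2 sets are well apart: the lowest library labelled KO held 9.28 CPM and the highest labelled WT 4.11 CPM. The log2 fold change of Hoxb4 was 1.63 (SE 0.26, edgeR adjusted p = 0.195), the smallest error of the cluster.

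Hoxb3 and Hoxb2, genes of hindbrain patterning at the low-numbered end, were scarce, at under 3 TPM in every library. Hoxb3 (ENSMUSG00000048763, chromosome 11, 96323326 to 96347930, plus strand) had 35, 75 and 51 counts in KO replicates 1, 2 and 3, against 20, 11 and 20 in WT replicates 1, 2 and 3 (log2 fold change 1.82, SE 0.48, edgeR adjusted p = 0.291). Hoxb2 (ENSMUSG00000075588, chromosome 11, 96350525 to 96354012, plus strand) had 37, 52 and 44 counts in KO replicates 1, 2 and 3, against 10, 14 and 22 in WT replicates 1, 2 and 3 (log2 fold change 1.70, SE 0.47, edgeR adjusted p = 0.293). In both genes every library labelled KO lay above every library labelled WT. Hoxb2 met the filter's level in 3 libraries labelled KO and 2 labelled WT, so its entry into the test rested in part on the libraries where it was higher.

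None of these 4 passed edgeR's threshold over all genes, while each had an unadjusted p under 0.05 (0.00031 for Hoxb4, 0.00196 for Hoxb5, 0.00623 for Hoxb3 and 0.00749 for Hoxb2). At that unadjusted level 6.88% of the tested genes were higher and 5.77% lower under the KO label. DESeq2 called Hoxb4 (adjusted p = 2.4e-05) and Hoxb5 (adjusted p = 0.000901) higher, but not Hoxb3 (adjusted p = 0.0891) or Hoxb2 (adjusted p = 0.132). Of all genes with a DESeq2 adjusted p, 2.93% were called, 1.61% as higher. No other alternative called a Hox gene, and none turned the sign of any of the 4. Without each library in turn, the log2 fold change of Hoxb5 ran from 1.35 to 2.03, of Hoxb4 from 1.5 to 1.81, of Hoxb3 from 1.52 to 2.05 and of Hoxb2 from 1.47 to 1.92.

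**Figure D2:**
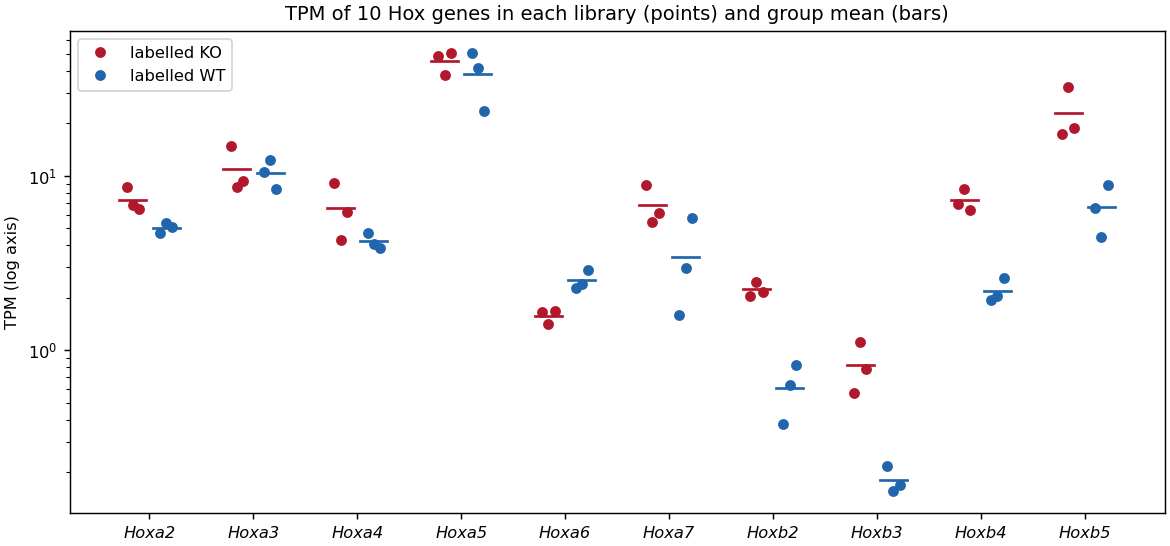
TPM on a log axis of 10 Hox genes in each of 3 libraries labelled KO (red, left of each pair) and 3 labelled WT (blue, right), with a bar at each group mean. For Hoxb2 to Hoxb5 all red points lie above all blue points, whereas for Hoxa3 and Hoxa5 they are mixed.

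Other Hoxb genes were near the limit of counting. Hoxb1 had 7, 7 and 6 counts in KO replicates 1, 2 and 3 and 8, 11 and 6 in WT replicates 1, 2 and 3. Hoxb6 had 8, 10 and 6 counts in KO replicates 1, 2 and 3 and 12, 0 and 0 in WT replicates 1, 2 and 3, so the labels overlapped. Hoxb7 had 19, 0 and 4 counts in KO replicates 1, 2 and 3 and none in the libraries labelled WT, where a count of 0 allows up to 0.0796 to 0.102 CPM (3 counts per library, counting error only). Hoxb9 reached 11 counts at most, Hoxb8 had 1 count in 1 library, and Hoxb13 had none.

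The Hoxa cluster, on chromosome 6, held the most abundant Hox transcript, Hoxa5, whose levels overlapped between the labels. Hoxa5 (ENSMUSG00000038253, chromosome 6, 52201754 to 52204587, minus strand), which mouse lungs need for normal development, had 48.7, 37.8 and 50.4 TPM in KO replicates 1, 2 and 3 and 50.6, 41.7 and 23.7 TPM in WT replicates 1, 2 and 3. WT replicate 3 was the lowest, and the other 5 libraries lay between 37.8 and 50.6 TPM (log2 fold change 0.18, SE 0.25, edgeR adjusted p = 0.784). By mean TPM, Hoxa5 stood above 77.2% of the tested genes. Hoxa3 (ENSMUSG00000079560, chromosome 6, 52169062 to 52213336, minus strand), linked to endothelial migration in wound repair, had 14.8, 8.61 and 9.39 TPM in KO replicates 1, 2 and 3 and 10.6, 12.3 and 8.37 TPM in WT replicates 1, 2 and 3 (log2 fold change -0.0016, SE 0.20, edgeR adjusted p = 0.998).

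Of the less abundant Hoxa genes, none was called by edgeR or DESeq2. Hoxa2, a hindbrain and branchial arch gene, had 230, 196 and 183 counts in KO replicates 1, 2 and 3 and 148, 151 and 200 in WT replicates 1, 2 and 3; scaled for depth these were 7.78, 6.47 and 6.2 CPM in the libraries labelled KO and 4.5, 5.11 and 5.3 CPM in those labelled WT. Scaled levels did not overlap (log2 fold change 0.45, SE 0.23, edgeR adjusted p = 0.448). Hoxa4 had 6.86, 3.43 and 5.01 CPM in KO replicates 1, 2 and 3 and 3.8, 3.25 and 3.37 CPM in WT replicates 1, 2 and 3, and KO replicate 2 lay within the WT range (log2 fold change 0.55, SE 0.33, edgeR adjusted p = 0.504).

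Hoxa7 had 266, 176 and 194 counts in KO replicates 1, 2 and 3 and 56, 93 and 251 in WT replicates 1, 2 and 3. The overlap came from WT replicate 3: the log2 fold change was 0.89 (SE 0.49, edgeR adjusted p = 0.475) and reached 1.55 without that library, at an edgeR adjusted p of 0.469 to 0.652 over the fits that leave out 1 library. Hoxa6 ran the other way, with 13, 12 and 15 counts in KO replicates 1, 2 and 3 against 22, 20 and 34 in WT replicates 1, 2 and 3, and its labels did not overlap (log2 fold change -0.74, SE 0.45, edgeR adjusted p = 0.519). Hoxa9 reached 11 counts at most, Hoxa10 had 1 count in 1 library, and Hoxa11 and Hoxa13 had none.

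Hoxc and Hoxd were nearly silent. Of their 18 genes, 8 had no count in any library, and the highest were Hoxd8 with 18 counts in KO replicate 1 and Hoxc8 with 15 counts in KO replicate 3. Hoxc8 was the sole Hoxc member tested, at 0.392 ± 0.1 CPM in the libraries labelled KO and 0.256 ± 0.161 CPM in those labelled WT (mean ± SD, n = 3 each; log2 fold change 0.61, SE 0.65, edgeR adjusted p = 0.715). Hoxd9 had 6, 9 and 4 counts in KO replicates 1, 2 and 3 and 13, 8 and 2 in WT replicates 1, 2 and 3. Hoxc4 and Hoxc6 reached 7 counts at most, and Hoxc9, Hoxc13, Hoxd4, Hoxd10 and Hoxd11 reached 5 at most. In all, 11 of the 39 Hox genes had 0 counts in all 6 libraries, and differences at this depth could not have been detected for them.

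Of the 12 Hox genes that passed the filter, 9 had a positive log2 fold change and 3 a negative one, with a median of 0.58; over all 14667 tested genes 50.9% were positive and the median was 0.01. Every library labelled KO exceeded every library labelled WT for 5 of the 12, Hoxa2 and Hoxb2 to Hoxb5, where 10.9% of the tested genes did so, and the reverse held for Hoxa6, where 9.42% did so. In either direction 20.3% of the tested genes did not overlap. A log2 fold change of at least 1 was found for 4 of the 12, again Hoxb2 to Hoxb5, and for 3.48% of the tested genes. Within Hoxb these were the 4 members tested (median 1.70); within Hoxa the median over 7 tested members was 0.18.

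**Figure D3:**
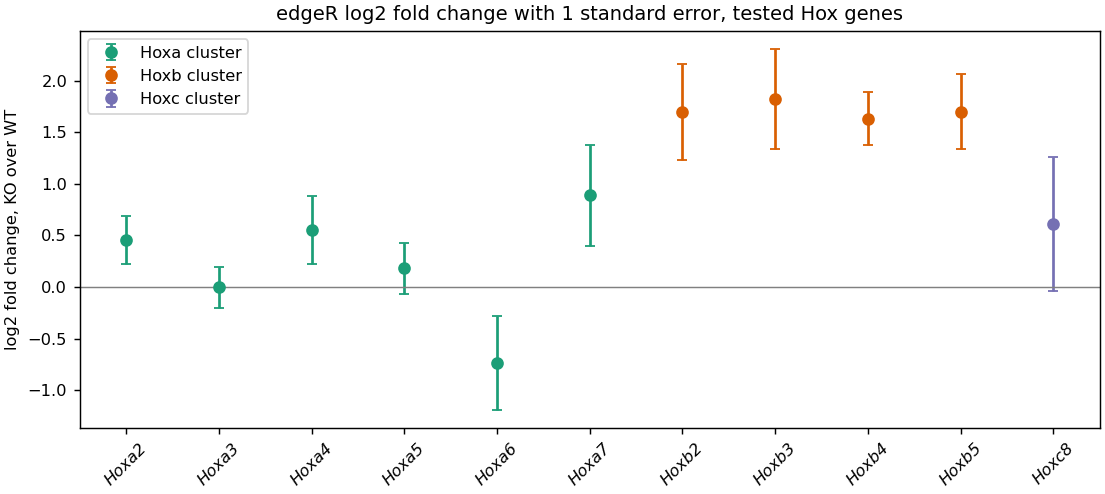
edgeR log2 fold change (libraries labelled KO over labelled WT) with 1 standard error for 11 of the 12 tested Hox genes, ordered by cluster and paralogue number. The 4 Hoxb genes lie at 1.63 to 1.82, and the 6 Hoxa genes shown lie between -0.74 and 0.89.

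Setting a Hoxb gene against its Hoxa paralogue in the same library removes the scaling between libraries; this comparison was added after the values had been seen. Hoxb4 over Hoxa4 was 0.765, 1.95 and 1.02 in KO replicates 1, 2 and 3 and 0.414, 0.507 and 0.671 in WT replicates 1, 2 and 3, as a ratio of TPM. Hoxb2 over Hoxa2 was 0.24, 0.364 and 0.335 in KO replicates 1, 2 and 3 and 0.0806, 0.118 and 0.162 in WT replicates 1, 2 and 3. The ratio Hoxb3 over Hoxa3 was 0.0383 to 0.130 in the libraries labelled KO and 0.0126 to 0.0205 in those labelled WT. In these 3 pairs the labels did not overlap, with log2 differences of 1.14, 1.42 and 2.10 (two-sided exact permutation p = 0.1 each, the smallest that 3 libraries against 3 allow, or 0.133 adjusted over 4 pairs). Hoxb5 over Hoxa5 overlapped, at 0.357, 0.856 and 0.373 in KO replicates 1, 2 and 3 and 0.130, 0.106 and 0.376 in WT replicates 1, 2 and 3, since WT replicate 3 had both the highest Hoxb5 of its label and the lowest Hoxa5 (log2 difference 1.49, exact permutation p = 0.3, adjusted 0.3). With this number of libraries no pair could pass 0.05, so the ratios are given as values.

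**Figure D4:**
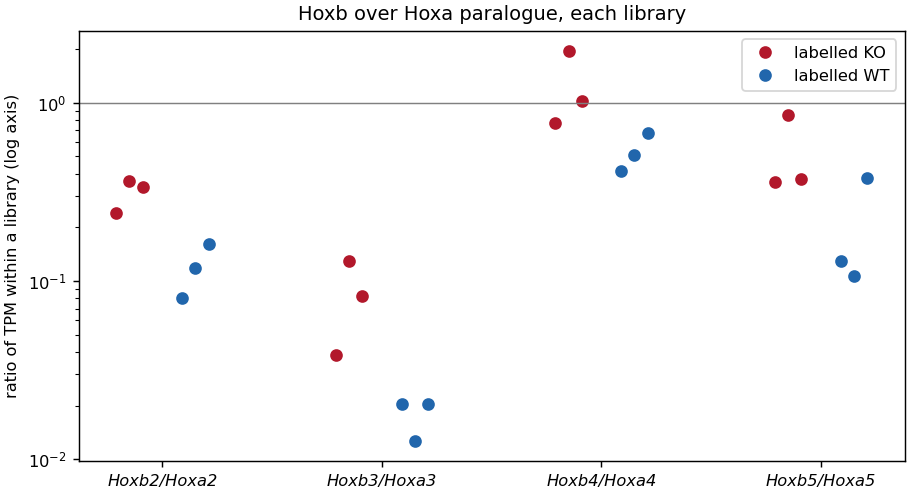
Ratio of TPM of a Hoxb gene to its Hoxa paralogue within each library, on a log axis, for 3 libraries labelled KO (red, left) and 3 labelled WT (blue, right). The points of the labels are apart for numbers 2, 3 and 4 and mixed for number 5, where WT replicate 3 lies at 0.376.

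Genes around the clusters were measured to see how far a difference reached. Within 500 kb of the Hoxb cluster 18 other genes were tested, 11 with a positive log2 fold change, and their median was 0.06. The nearest were Ttll6, 28.9 kb beyond Hoxb13 (log2 fold change -0.73, SE 0.93), Calcoco2, 82.4 kb beyond it (0.06, SE 0.50), and Skap1, 96.3 kb beyond Hoxb1 (1.04, SE 0.98), all with low counts. Farthest from 0 was Igf2bp1, an RNA-binding protein gene named here after its value was seen (log2 fold change -2.67, SE 0.96, edgeR adjusted p = 0.342). Of a list of 22 neighbours of the 4 clusters, 10 were positive and 12 negative, with a median of -0.03. By edgeR 0 were called, with 2 at an unadjusted p under 0.05, where 6.88% of all tested genes were higher and 5.77% lower. DESeq2 called 0 of the 22. The listed neighbours with the highest CPM, Tax1bp1 beside Hoxa and Hnrnpa1 beside Hoxc, differed by 0.24 (SE 0.15) and -0.26 (SE 0.21) in log2 fold change.

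**Figure D5:**
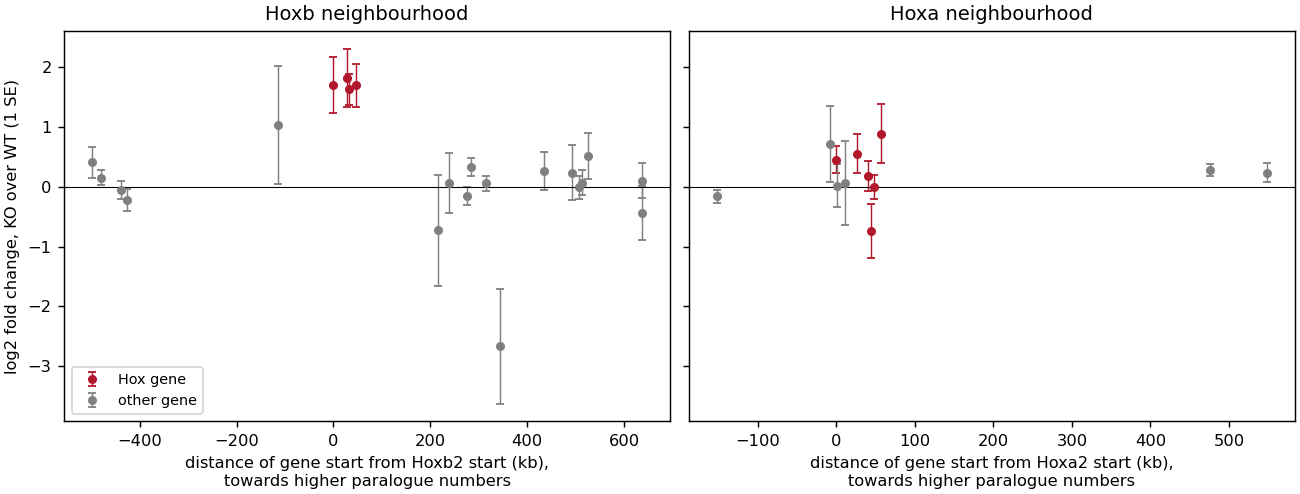
edgeR log2 fold change with 1 standard error of the tested genes around the Hoxb cluster (left) and the Hoxa cluster (right), against the distance in kb of a gene's start from that of Hoxb2 or Hoxa2, counted positive towards higher paralogue numbers; Hox genes are red and others grey. The 4 Hoxb genes lie above the grey points on either side.

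Other transcripts in the clusters, noncoding ones and the Evx genes at their high-numbered ends, were scarce. Of 16 measured, 11 had no count in any library, among them Hotair, Hottip and the hairpins of the miR-10 and miR-196 families, which a library of long RNA is not made to capture. Hoxaas2, antisense to Hoxa3, had the most counts, at 3.04 ± 0.647 CPM in the libraries labelled KO and 3 ± 0.854 CPM in those labelled WT (mean ± SD, n = 3 each; log2 fold change 0.02, SE 0.36). In TPM Hotairm1 was higher than Hoxaas2, at 19.7 ± 4.8 TPM in the libraries labelled KO and 11.4 ± 7.5 TPM in those labelled WT (mean ± SD, n = 3 each). These TPM values rest on few counts, 17, 17 and 11 in KO replicates 1, 2 and 3 and 4, 15 and 11 in WT replicates 1, 2 and 3. Its mean over all libraries was 0.405 CPM. Hotairm1 differed by 0.71 (SE 0.63) and Hoxaas3 by 0.07 (SE 0.71) in log2 fold change, and edgeR and DESeq2 called 0 of the 3 tested, with 0 at an unadjusted p under 0.05. Whether counting kept the strand is not stated, so reads of a Hox gene and an antisense partner are not told apart; Hoxb5os, which overlaps Hoxb5, held 0 to 9 counts, and Hoxb3os, which overlaps Hoxb2 and Hoxb3, was not analysed here. Hoxa3 also shares its span with Hoxa4, Hoxa5 and Hoxa6 on the same strand, so estimates among these depend on how shared reads were assigned.

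The TALE cofactors, with which HOX proteins bind DNA, were measured next. Of 8 tested, 5 had a positive log2 fold change and 3 a negative one (median 0.12). By edgeR 0 were called, 2 had an unadjusted p under 0.05, and DESeq2 called 1. Over all tested genes, 6.88% were higher and 5.77% lower at that unadjusted level, and DESeq2 called 2.93% of those with an adjusted p. Meis1 was at 176 ± 53.2 CPM in the libraries labelled KO and 169 ± 32.2 CPM in those labelled WT (mean ± SD, n = 3 each; log2 fold change 0.06, SE 0.23). Meis2, named because DESeq2 called it (adjusted p = 0.03), measured 69.6, 52 and 66.4 CPM in KO replicates 1, 2 and 3 and 43.8, 35.8 and 23.8 CPM in WT replicates 1, 2 and 3, with no overlap (log2 fold change 0.86, SE 0.23, edgeR adjusted p = 0.293).

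Among genes of retinoic acid signalling 13 were tested, 8 with a positive and 5 with a negative log2 fold change (median 0.06). By edgeR and by DESeq2 0 were called, with 3 at an unadjusted p under 0.05. The members with most counts were Dhrs3, a retinaldehyde reductase (log2 fold change -0.11, SE 0.15), and Rxra, a nuclear receptor (0.14, SE 0.15). Chromatin regulators of Hox clusters, Polycomb and trithorax members among them, were positive in 23 and negative in 10 of 33 cases (median 0.11). By edgeR 0 were called, with 9 at an unadjusted p under 0.05. At that level 6.88% of all tested genes were higher and 5.77% lower under the KO label. Kmt2a, the trithorax methyltransferase that keeps Hox genes active, had a log2 fold change of 0.18 (SE 0.13), and Rad21, a cohesin subunit, of -0.02 (SE 0.11). DESeq2 called 4 of these regulators, where it called 2.93% of all genes with an adjusted p. Of the 4, 3 are named for that reason: Phc2, a Polycomb subunit (log2 fold change by edgeR 0.59, SE 0.15), Kdm6b, which removes the Polycomb mark from histone H3 (1.51, SE 0.51), and Rbbp4, a histone-binding subunit of several complexes (-0.61, SE 0.16). Kdm6b overlapped between the labels. It had 25.9, 86.4 and 74.9 CPM in KO replicates 1, 2 and 3 and 33.4, 12 and 20.2 CPM in WT replicates 1, 2 and 3. Of the ParaHox genes, relatives of the Hox genes that lie outside the clusters, 4 of 6 had no count and the others 1 at most in a library. Among 7 tested DNA methylation enzymes Dnmt3a was the sole call by edgeR and by DESeq2, and 5 had an unadjusted p under 0.05 in edgeR. These 5 did not overlap between the labels, with Dnmt3a and Tet3 higher and Dnmt1, Dnmt3b and Uhrf1 lower under the KO label. Over all tested genes, 20.3% did not overlap in either direction, and 6.88% were higher and 5.77% lower at that unadjusted level.

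Markers of other lung cells were measured beside the Hox genes, since lung fibroblasts too are known to carry Hox transcripts. Of 12 fibroblast markers, 10 had a higher mean level under the KO label, 7 of them without overlap, where 10.9% of the tested genes lay above in this way. By edgeR 6 had an unadjusted p under 0.05 and 1 was called, Col3a1 (log2 fold change 1.22, SE 0.11, adjusted p = 0.0223). That call was lost without any 1 library (edgeR adjusted p 0.0781 to 0.293). DESeq2 called 5, Col1a1, Col3a1, Dcn, Inmt and Npnt, all higher. Over all genes DESeq2 called 1.61% as higher, and 6.88% of the tested genes were higher at an unadjusted edgeR p under 0.05. The 12 markers summed to 333 to 487 CPM in the libraries labelled KO and 177 to 251 CPM in those labelled WT. None was at 0 in all 6 libraries. Inmt had 15, 148 and 53 counts in KO replicates 1, 2 and 3 and 4, 0 and 4 in WT replicates 1, 2 and 3. Dcn, which encodes the matrix proteoglycan decorin, had 78, 78 and 73 counts in KO replicates 1, 2 and 3 against 4, 4 and 8 in WT replicates 1, 2 and 3, whereas Tcf21, a transcription factor of lung fibroblasts, had 86, 145 and 13 counts in KO replicates 1, 2 and 3 and 100, 76 and 199 in WT replicates 1, 2 and 3. The part of fibroblast RNA in the Hox values was not tested, and in bulk RNA more cells of a type and more RNA per cell cannot be told apart. Pericyte and smooth muscle markers summed to 129 to 578 CPM in the libraries labelled KO and 111 to 479 CPM in those labelled WT, and alveolar type 2 markers to 630 to 3390 CPM and 197 to 8960 CPM in the same order of labels, both overlapping.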

How the data were processed

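Per the labels' protocols, the sorted cells' RNA was amplified (SMARTer kit for very low input) and read from both ends on a HiSeq. The authors deposited estimated counts per Ensembl gene, in whole numbers and not normalized, and TPM values per gene, whose columns sum to 875864 to 885609. Per the submitters' processing notes, kallisto (version not given) and mm10 were used; no source here states the annotation or how transcripts were summed to genes. Groups and replicate numbers came from sample titles.

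GENCODE M21, on the same assembly, gave symbols and coordinates (24299 of 24520 identifiers; the rest took 0.03% to 0.04% of counts). Rounding the estimated counts changed none. Genes were tested in R 4.3.3 with the quasi-likelihood method of edgeR 4.0.16 on all 6 libraries with TMM factors, filterByExpr by label and Benjamini-Hochberg adjustment over all 14667 tested genes at 0.05. The standard error is the size of the log2 fold change over the square root of F. CPM is scaled by TMM. Fold changes are labelled KO over labelled WT.

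Members and lists were chosen with earlier results of these data known. Hox genes with a mean of at least 1 CPM are given per library; others named per library, Hoxb2 and Hoxa6 among them, were chosen after their values were seen. Of each other list, called members or else the 2 with the highest CPM are named, besides transcripts inside the clusters and genes said to be named otherwise. Some members of the lists are not reported here, though counts over a list include them. A hairpin on chromosome 17 was left out of the transcripts at the clusters. No list was tested as a set. Alternatives were another tool (DESeq2 1.42.0, or limma 3.58.1 with voom or on log2(TPM + 1) and log2(TPM + 0.1)), other scaling (RLE, upper quartile or none beyond library size), other filters (none, or mean counts from 50 up), other terms (a block for replicate number, or sex as read from Xist and Y-linked genes), and each library left out; cluster sums were also taken in CPM and over members reaching 1 TPM.

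The comparison of the labels was tested on simulated data of the same depth. Changed genes were drawn from those with a mean count above 50. Recovery at the lower counts of Hoxa6, Hoxb2, Hoxb3 and Hoxc8 was therefore not measured. Of 100 genes given a 2-fold change, 37% came back with edgeR and 58% with DESeq2. Of 100 given a 4-fold change, edgeR found 81% and DESeq2 89%. False calls numbered 8 among 14357 genes in edgeR and 37 among 14348 in DESeq2. In depth, 3 counts correspond to 0.0796 to 0.102 CPM per library. Within a label every pair of libraries differed by more than counting noise, with a chi-square of 47.3 to 105 per degree of freedom. Reads were amplified with no molecular identifiers stated, so a floor covers counting error only.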

Additional observations from a re-analysis of the deposited data

How the results depend on the processing

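The count of genes past the threshold, 5 by edgeR, was 396 by DESeq2, 9 by limma on log2(TPM + 0.1), 2 with sex as a covariate and 0 with the replicate number as a block (1472 at an unadjusted p under 0.05), and 1 to 4 without each library in turn. It was lowest without WT replicate 1 or WT replicate 3 (1 each), then 2 without KO replicate 3 and 3 without KO replicate 1. The count of Hox genes past it, 0 by edgeR with 4 at an unadjusted p under 0.05, was 2 by DESeq2, Hoxb4 and Hoxb5, and 0 in every other alternative. Deviations from the label means correlated at 0.275, -0.053 and -0.169 for replicate numbers 1, 2 and 3, and KO replicate 3 correlated best with WT replicate 2 (0.346). With 3 libraries per label these values cannot show whether equal numbers were paired. By Xist and Y-linked genes, replicate 1 read as female and replicates 2 and 3 as male under both labels, so replicate number and sex are not separate. The block ended the call of Dnmt3a (edgeR adjusted p 0.0679) and changed none of a Hox gene (edgeR adjusted p of Hoxb4 0.468).

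Of 199 refits of single Hox genes, 189 kept their direction and side of the threshold and 2 passed it, both by DESeq2. In 8 an uncalled sign changed, 7 of them for Hoxa3 and 1 for Hoxa5. The median over tested Hox genes stayed between 0.47 and 0.75, and the log2 ratio of summed Hoxb TPM between 1.52 and 1.97. The filter at a mean count of 50 leaves no value for 5 Hox genes, Hoxa6, Hoxb2, Hoxb3 and Hoxc8 among them, nor that at 1 TPM for Hoxc and Hoxd. Hoxb3 is the most dependent on the pseudocount, at 0.61 on log2(TPM + 1). Depth limits Hoxc and Hoxd, where no gene exceeded 18 counts in a library.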

Other observations

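The count behind 1 TPM of a gene reflects the length of the transcripts that the authors' quantification assigned to it. Relative to the median tested gene of the same library, it was 1.36, 1.36 and 1.37 for Hoxb3 in KO replicates 1, 2 and 3, against 1.72, 1.47 and 1.76 in WT replicates 1, 2 and 3. For Hoxb4 it was 0.891 to 0.897 in the libraries labelled KO and 0.899 to 0.901 in those labelled WT, and for Hoxb5 0.633 to 0.636 and 0.633 to 0.638. The TPM of Hoxb3 was accordingly 4.53 times as high in the libraries labelled KO as in those labelled WT, and its CPM 3.56 times. Values per transcript were not analysed here.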
